A study of Homo sapiens with 21 samples.

Results

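The change in gene expression between day 7 (d7) and day 10 (d10) of TGFβ treatment was followed in HMLE cells, with 3 RNA-seq libraries at d7 compared with 3 at d10. These 6 of the 21 libraries of the time course were taken by the day in their column names, and the genes were the 13266 of 23201 listed symbols with a mean normalized value of at least 10 over the 6 libraries. HMLE cells are mammary epithelial cells of human origin, an established line immortalized with telomerase and a viral T antigen, which binds p53 and RB. The cells had been seeded at one density, and both groups were the same line under continued TGFβ, so they differed in the length of treatment (7 or 10 days) and in nothing else that the labels record. The other 15 libraries were from untreated cells (d0) and from days 1, 4, 15 and 20. The study describes the libraries as biological triplicates. The files held a normalized value per gene and library, which is the read count divided by one size factor of the library, and the recovered reads came to between 20158673 and 22388732 per library here (18847917 to 22667754 over all 21). A gene with 3 reads or fewer in a library was taken to be at the floor, a limit that speaks to counting error and to nothing else.

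TGFβ is a cytokine that binds a receptor kinase pair at the cell surface and signals through SMAD proteins, which enter the nucleus and act with other transcription factors. In epithelial cells it arrests the cell cycle through CDK inhibitors and drives the epithelial-mesenchymal transition (EMT), in which cell junctions, keratins and basement membrane contacts are given up for a contractile, matrix-producing and migratory state. The transition runs through intermediate states and can be reversed, and growth arrest and mesenchymal change need not move together.

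The defining markers of the cell type were present. All 10 basal mammary epithelial markers were tested, and KRT5, the main basal keratin, stood at 298352, 281986 and 149134 at d7 and 102501, 100457 and 100870.0 at d10. Of 12 luminal markers 6 were under the filter (PGR, FOXA1, ELF5, KIT, PRLR and TFF1). The other 6, KRT8, KRT18 and KRT19 among them, were tested. The sum of the luminal markers was 11854 to 13306 at d7 and 12788 to 13159 at d10. Of 12 leukocyte markers only CSF1R and CD68 were tested, and 6 of the 12, PTPRC among them, were at the floor in all 6 libraries. CSF1R stood at 1459, 1341 and 979 at d7 and 385, 438 and 482 at d10, and the sum of the 12 was 1542 to 2192 at d7 and 742 to 884 at d10. Among 8 endothelial markers the tested ones were KDR, which fell, and PECAM1, 3 were at the floor in all 6 libraries, and their sum was 87.5 to 262 at d7 and 40.8 to 52.8 at d10. The part of these markers in the results was not tested. In RNA from whole cultures, fewer cells of a kind and less RNA per cell cannot be told apart.

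One of the d7 libraries stood apart, the third in the order of the columns, which carry no replicate numbers. It differed from the other d7 libraries by a root mean square of 0.469 and 0.453 on the log2 scale, whereas they differed from each other by 0.218 and the pairs within the other timepoints by 0.210 to 0.240. On the axis that runs from the mean of the first 2 d7 libraries (0) to the mean of d10 (1), it lay at 0.414. The d4 libraries lay at 0.352 to 0.358 and those of d0 at 0.400 to 0.432 on that axis, the d15 libraries at 0.052 to 0.057, the d20 libraries at 0.684 to 0.704 and those of d1 at 0.731 to 0.744. Measured over all genes tested, the third d7 library was closest to the mean of d4 (0.420) and then to d20 (0.424). The mean of the other d7 libraries was at 0.448, d1 at 0.463 and d10 at 0.576. The main counts are therefore given with all 6 libraries and again without this one, as are most fold changes and list counts. Values are listed in the order of the columns, so the third d7 value belongs to the library that stood apart. Where 2 log2 fold changes are joined by "or", the latter is from the fit without it.

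**Figure D1:**
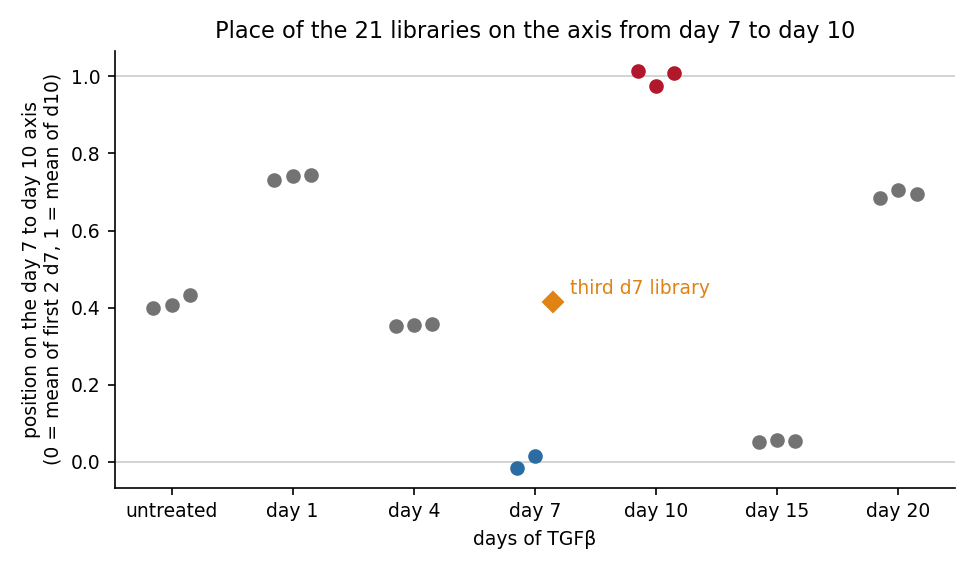
Position of each of the 21 libraries (points, 3 per timepoint) on the line from the mean of the first 2 d7 libraries, set to 0, to the d10 mean, set to 1, computed over the 13266 genes tested on the log2 scale. The third d7 library (diamond) lies at 0.414, beside the d4 and d0 libraries, and the d15 libraries lie at 0.052 to 0.057, next to the other d7 libraries.

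Between d7 and d10, 1165 genes fell and 478 rose at least 2-fold at an adjusted p under 0.05 (limma on log2(value + 1), two-sided, Benjamini-Hochberg adjustment over the 13266 genes tested). These are 8.78% and 3.6% of the genes tested, 12.4% in all. Without the third d7 library 1421 fell and 699 rose (10.7% and 5.27%, 16% in all). Of the genes called with all 6 libraries, 1153 of those that fell (99%) and 468 of those that rose (97.9%) were called in the same direction without it, and 0 were called in the opposite one. Decreases were the larger changes. A change of at least 4-fold was found for 322 genes that fell and 47 that rose, and one of at least 8-fold for 95 and 6. The lower side held 70.9% of the calls with the authors' size factors, 73.8% after scaling libraries to one common total and 58.1% with quantile normalization. With no minimum fold 3966 genes were lower and 4272 higher (29.9% and 32.2%, 62.1% in all). Without the third d7 library these were 4876 and 5164 (36.8% and 38.9%, 75.7% in all). Over all genes the median was 0.01 on the log2 scale in both fits. Small changes thus balanced while large ones were mostly decreases. The groups did not overlap for 4495 lower genes (33.9%) and 4816 higher genes (36.3%). Every list count below is to be read beside the shares of all genes. These are 8.78% lower and 3.6% higher at least 2-fold, and 29.9% and 32.2% with no minimum fold.

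**Figure D2:**
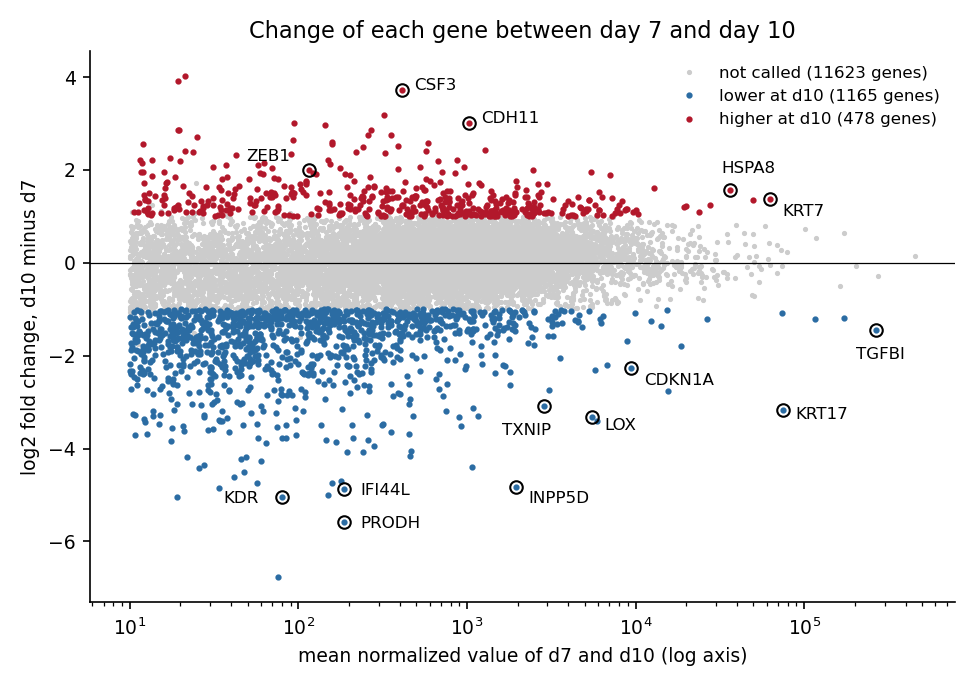
Log2 fold change of d10 against d7 for each of the 13266 genes tested (1 point per gene, all 6 libraries) against the mean normalized value of both groups (log axis). The 1165 genes that fell at least 2-fold reach further from 0 than the 478 that rose, and the genes named on the plot are described in the text.

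CSF3, which encodes the granulocyte growth factor G-CSF, led the increases of genes whose d7 or d10 mean reached 50. Its values were 67.5, 50.04 and 55.8 at d7 and 757, 787 and 748 at d10 (log2 fold change 3.71, standard error 0.12, adjusted p = 2.06e-05, limma). The d7 libraries agreed for this gene, and its log2 fold change was 3.69 without the third. CDH11, a cadherin of mesenchymal cells, stood at 126, 136 and 595 at d7 and 1739.6, 1732 and 1810.0 at d10, so that the third d7 library lay between the groups (log2 fold change 3.02, standard error 0.53, and 3.74 without that library). GREM1, a secreted BMP antagonist, stood at 22.2, 18.8 and 69.8 at d7 and 249.8, 246 and 253 at d10 (log2 fold change 2.97, or 3.55 without the third). APLN, the peptide hormone apelin, was steady over the d7 libraries at 16.9, 21.9 and 22.3 and reached 165, 166 and 176 at d10 (log2 fold change 3.00, or 3.07 without the third). COL8A1, a short-chain collagen, rose from 134, 118 and 290.4 to 995, 1032 and 957 (log2 fold change 2.57, or 2.97 without the third). The other genes among the 12 with the largest increase were HECW2, NAV3, SH2D2A, DPYSL3, RPSAP52, MYCBPAP and an uncharacterized locus. Some of the 12 had been as high at d1. The d1 and d10 means were 440 and 438 for SH2D2A and 277 and 268 for RPSAP52. They were 481 and 764 for CSF3, 76.3 and 1760 for CDH11 and 36.1 and 250 for GREM1. Reads of RPSAP52, a pseudogene, can be shared with its parent gene.

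The 12 largest decreases included INPP5D, which encodes the inositol phosphatase SHIP1. It stood at 5402, 5169 and 876 at d7 and 91.6, 115 and 99.7 at d10 (log2 fold change -4.82, standard error 0.64, adjusted p = 0.000592, limma, or -5.69 without the third). Its mean was 468 ± 7.23 (SD, n = 3) at d4. It was 7125 ± 25.9 at d15 and 766 ± 12.8 at d20, so that d10 was low between the high values of the first 2 d7 libraries and of d15. PRODH, the mitochondrial enzyme that begins proline breakdown, stood at 529.8, 514 and 62.4 at d7 and 5.97, 4.86 and 2.93 at d10 (log2 fold change -5.57, or -6.59 without the third). KDR, the VEGF receptor, stood at 229, 197 and 43.7 at d7 and 1.99, 3.89 and 2.93 at d10 (log2 fold change -5.04, or -5.79 without the third). CXCL14, an epithelial chemokine, stood at 413, 426 and 41.9 at d7 and 3.98, 4.86 and 6.84 at d10 (log2 fold change -5.01, or -6.10 without the third). In all of these genes the third d7 library was several-fold under the other d7 libraries and still above every d10 library. VIPR1, a receptor for vasoactive intestinal peptide, had 408, 387 and 127 at d7 and 9.95, 8.75 and 8.80 at d10 (log2 fold change -4.75, or -5.29 without the third). At d10, 5 of the 12 genes were at the floor in every library, and their folds are lower bounds against 3 reads per library. NCRNA00086, a non-coding RNA, had 0 reads in each d10 library and was at least 51.4-fold lower, from 234, 192 and 27.9 at d7. BLNK, a signalling adaptor, was at least 37.7-fold lower, the endothelin gene EDN2 at least 31.8-fold, MAP7D2 at least 27.4-fold and RTN1 at least 22.7-fold.

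The hallmark genes of EMT moved unevenly. Of the 8 mesenchymal hallmark genes 3 rose at least 2-fold, both with and without the third d7 library, and 4 were higher with no minimum fold (6 without it). The median log2 fold change of the 8 was 0.41 (0.50 without it). ZEB1, a repressor of epithelial genes, stood at 36.9, 35.5 and 69.8 at d7 and 175, 204 and 175 at d10 (log2 fold change 2.01, standard error 0.25, adjusted p = 0.000517, limma, or 2.32 without the third). CDH2, which encodes N-cadherin, stood at 74.9, 59.4 and 105 at d7 and 211, 234 and 228 at d10 (log2 fold change 1.52, or 1.73 without the third). The transcription factor TWIST2 stood at 96.0, 107 and 155 at d7 and 303, 328 and 291 at d10 (log2 fold change 1.38, or 1.59 without the third). The groups did not overlap for any of these 3, as for 36.3% of all genes on the higher side. In each of the 3 the third d7 library was the highest of its group. VIM, the intermediate filament of mesenchymal cells, rose by less than 2-fold, from 31030.1, 30181 and 42311 to 53111, 53721 and 52325 (log2 fold change 0.64, or 0.79 without the third). TWIST1 fell, with values of 245, 229 and 228 at d7 and 184, 200.2 and 199 at d10 (a log2 fold change of -0.27 with adjusted p = 0.0247, limma). FN1, the matrix protein fibronectin, was already at 428804, 395781 and 481598 at d7 and was at 465984, 496034 and 474206 at d10 (a log2 fold change of 0.14 with adjusted p = 0.383, limma; 0.22 with adjusted p = 1.4e-05 without the third d7 library). The log2 fold changes of SNAI2 and ZEB2 were 0.10 and 0.18 (adjusted p = 0.228 and 0.456, limma), and the sign of SNAI2 flipped to -0.04 with quantile normalization.

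On the epithelial side, 5 of the 7 hallmark genes fell and 1 rose with no minimum fold, 2 of them at least 2-fold lower (3 without the third d7 library), and the median was -0.85. OVOL1, a repressor of mesenchymal genes, stood at 179, 155 and 238 at d7 and 22.9, 34.0 and 23.5 at d10 (log2 fold change -2.79, or -2.62 without the third). In the third d7 library it was the highest of the 6, on the far side from d10. MUC1, an apical mucin, stood at 65.4, 61.5 and 44.7 at d7 and 17.9, 13.6 and 16.6 at d10 (log2 fold change -1.76, or -1.93 without the third). CDH1, which encodes E-cadherin, fell from 7923, 7599 and 6239.6 to 3618, 3689 and 3855 (log2 fold change -0.96, standard error 0.09, adjusted p = 0.000207, limma; -1.06 without the third d7 library). The splicing factor ESRP1 and the tight junction gene OCLN fell by 0.85 and 0.84 on the log2 scale. ESRP2, the paralog of ESRP1, rose from 846, 778 and 1029 to 1136, 1176 and 1158 (log2 fold change 0.40, or 0.51 without the third), so that the pair went opposite ways. For OVOL2 the groups overlapped (a log2 fold change of 0.04 with adjusted p = 0.82, limma).

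Keratins and junction genes of stratified epithelium were mostly lower at d10. Of 8 basal and stress keratins tested, 7 fell at least 2-fold and 0 rose, with a median of -1.28 (8 and -1.84 without the third d7 library). KRT17 stood at 184224, 169632 and 55169 at d7 and 13034, 14213 and 12669 at d10 (log2 fold change -3.17, standard error 0.41, adjusted p = 0.000578, limma; -3.73 without the third d7 library). KRT16, like KRT17 a keratin of wounded epidermis, stood at 15422, 14111 and 3515 at d7 and 889, 926 and 788 at d10 (log2 fold change -3.40, or -4.09 without the third). The structural basal pair KRT5 and KRT14 fell by 1.20 and 1.20 on the log2 scale (log2 fold changes of -1.52 and -1.45 without the third d7 library). Quantile normalization left 4 of the 7 past 2-fold, and reads of these keratins can be shared between near-identical family members. Of 7 keratins of simple or mucosal epithelium, KRT7 and KRT18 rose at least 2-fold, and KRT19 and KRT13, a keratin of stratified mucosa, fell. KRT7 stood at 28122, 27598 and 53364 at d7 and 92798, 85612 and 90072 at d10 (log2 fold change 1.37, or 1.68 without the third). KRT18, another keratin of simple epithelium, stood at 2791, 2758 and 4329.8 at d7 and 7412, 7022 and 7203 at d10 (log2 fold change 1.16, or 1.38 without the third). KRT8, the partner of KRT18, went the other way, from 8227, 7711 and 8148 to 5036, 5045 and 4882 (log2 fold change -0.69, or -0.68 without the third).

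Of 15 desmosome and hemidesmosome genes, 7 fell at least 2-fold (8 without the third d7 library) and 0 rose, with a median of -0.93. The desmosomal cadherin DSG3 stood at 14194, 13821 and 5694 at d7 and 2153, 2304 and 2332 at d10 (log2 fold change -2.20, or -2.63 without the third). The plaque protein DSP fell from 43206, 41739 and 26956 to 15381, 16354 and 15674 (log2 fold change -1.21, or -1.43 without the third). The membrane protein PERP fell from 24369, 24566 and 12993 to 7933, 7887 and 7477 (log2 fold change -1.35, or -1.66 without the third). ITGA6, the integrin chain of the hemidesmosome, rose from 16319, 16874 and 16338 to 25334, 25465 and 25145 (log2 fold change 0.62, or 0.61 without the third), while its partner ITGB4 fell (log2 fold change -0.72, or -0.84 without the third). Of 20 cornified envelope genes tested, 13 fell at least 2-fold and 0 rose (14 and 0 without the third d7 library; 8 and 0 with quantile normalization), and 9 of the list's 29 genes were under the filter. PPL, the envelope scaffold periplakin, had 3326, 2961 and 2027 at d7 and 579, 543 and 618 at d10 (log2 fold change -2.23, or -2.44 without the third). The serine protease KLK7 had 189.9, 158 and 34.4 at d7 and 26.9, 15.6 and 6.84 at d10 (log2 fold change -2.74, or -3.51 without the third). FLG and SCEL, which did not pass the test, had log2 fold changes of 0.21 and 0.02 (adjusted p = 0.155 and 0.903, limma).

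**Figure D3:**
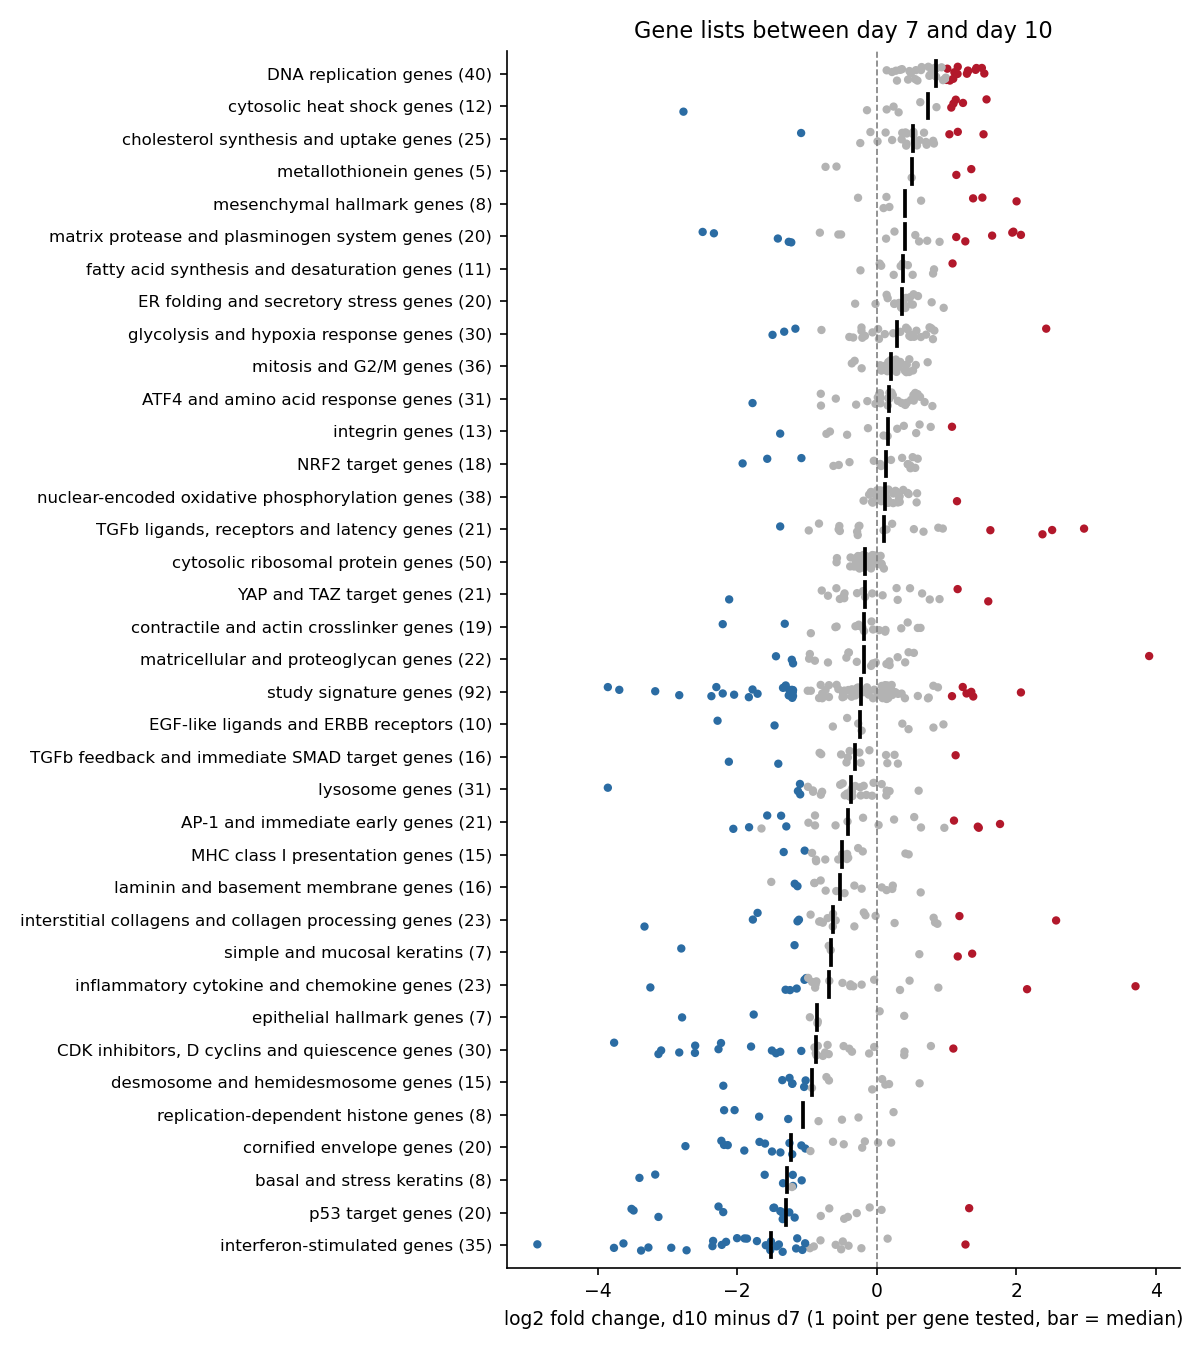
Log2 fold change of d10 against d7 for the members tested of each gene list (1 point per gene, all 6 libraries; the number tested is in brackets; the bar is the median, red and blue points passed the 2-fold call). Interferon-stimulated genes, p53 target genes and keratins have the lowest medians (-1.51, -1.30 and -1.28) and DNA replication genes the highest (0.85), with the median of all genes at the dashed line.

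Many genes of growth arrest fell, and genes of DNA replication rose. Of 30 CDK inhibitors, D cyclins and quiescence genes, 13 fell at least 2-fold and 1 rose (15 and 0 without the third d7 library), beside 8.78% and 3.6% of all genes, with a median of -0.87. CDKN1A encodes the CDK inhibitor p21 and had 22956, 20636 and 4839.8 at d7 and 2642, 2903 and 2682 at d10 (log2 fold change -2.27, standard error 0.53, adjusted p = 0.00734, limma; -2.99 without the third d7 library). CDKN1C, the related inhibitor p57, had 233, 187 and 59.6 at d7 and 8.96, 12.6 and 6.84 at d10 (log2 fold change -3.76, or -4.36 without the third). CDKN2B, which TGFβ is known to induce, had 2019, 1849.5 and 900.0 at d7 and 533, 558 and 562 at d10 (log2 fold change -1.44, or -1.81 without the third). In all 3 the third d7 library lay between the groups, nearest to d10 in CDKN1A. TXNIP, a brake on glucose uptake, had 6970.3, 6842 and 1803 at d7 and 502, 502 and 552 at d10 (log2 fold change -3.09, or -3.73 without the third). FOXO1, a transcription factor of quiescent cells, had 1069, 1049.9 and 275 at d7 and 108, 120.5 and 103 at d10 (log2 fold change -2.60, or -3.25 without the third). Its target FBXO32 had 844, 813 and 455 at d7 and 82.6, 123 and 83.1 at d10 (log2 fold change -2.83, or -3.12 without the third). CCND1, the D cyclin that drives entry into the cycle, rose from 3018, 3059 and 3204 to 5487, 5191 and 5246 (log2 fold change 0.78, or 0.80 without the third). The 1 member called higher was KLF2, at 11.6, 5.21 and 3.72 at d7 and 14.9, 13.6 and 14.7 at d10, values close to the filter.

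The p53 target list shares CDKN1A, BTG2 and SESN1 with the arrest list. Of its 20 members 12 fell at least 2-fold and 1 rose, beside 8.78% and 3.6% of all genes, with a median of -1.30 (13 and 1, and -1.69, without the third d7 library). TP53INP1, which promotes autophagy and cell death, had 2249, 2310.3 and 598 at d7 and 125, 145 and 112 at d10 (log2 fold change -3.51, or -4.16 without the third). GDF15, a stress cytokine, had 573, 506 and 88.4 at d7 and 26.9, 26.2 and 23.5 at d10 (log2 fold change -3.48, or -4.35 without the third). MDM2, the ubiquitin ligase of p53, had 3837, 3839 and 1039 at d7 and 987, 959 and 982 at d10 (log2 fold change -1.35, or -1.97 without the third), with the third d7 library at the d10 level. The member that rose was the nuclease gene AEN, from 651, 618 and 366 to 1356, 1274 and 1351 (log2 fold change 1.33, or 1.06 without the third), where the third d7 library was the lowest of the 6.

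All 40 DNA replication genes were higher at d10 at an adjusted p under 0.05 with no minimum fold, beside 32.2% of all genes, and 14 of them rose at least 2-fold, beside 3.6%. Their median log2 fold change was 0.85, and 18 passed 2-fold without the third d7 library (median 0.95). CDC6, which loads the replicative helicase, had 579, 694 and 883 at d7 and 2043, 2032 and 2131 at d10 (log2 fold change 1.54, standard error 0.14, adjusted p = 0.000181, limma, or 1.70 without the third). MCM10 had 325, 378 and 423 at d7 and 1101, 1017 and 1077 at d10 (log2 fold change 1.51, or 1.60 without the third). The transcription factor E2F1, itself a member of this list, had 227, 253 and 338 at d7 and 733, 712 and 734 at d10 (log2 fold change 1.43, or 1.60 without the third). UHRF1, which maintains DNA methylation at the fork, had 942, 979 and 1829 at d7 and 3329, 3108 and 3131 at d10 (log2 fold change 1.42, or 1.73 without the third). The groups did not overlap for any of the 4, as for 36.3% of all genes on the higher side. In each of the 4 the third d7 library was the highest of the d7 group. The smallest changes of the list were those of RPA2 and RRM1 (0.14 and 0.22).

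Mitotic genes moved much less. Of 36 mitosis and G2/M genes 0 rose or fell at least 2-fold by limma, edgeR or DESeq2 with all 6 libraries, and 1 rose without the third d7 library. With no minimum fold 14 were higher and 3 lower (5 and 3 with either other scaling, and 32 and 3 without the third d7 library), with a median of 0.21 (0.40 without it). CDC20, an activator of the anaphase-promoting complex, had 3755, 3825 and 7018 at d7 and 7598, 7773 and 7826 at d10 (log2 fold change 0.73, or 1.03 without the third). CCNB1, which encodes cyclin B1, had 3970.0, 3917 and 7006 at d7 and 6936, 7149 and 7073 at d10 (log2 fold change 0.56, or 0.84 without the third). MKI67, the proliferation antigen Ki-67, had 7209.8, 6834 and 11850.1 at d7 and 10829, 11607 and 11427 at d10 (log2 fold change 0.43, or 0.68 without the third). In these genes the third d7 library reached or came near the d10 values. TOP2A went down, from 14882, 15159.9 and 16019.8 to 12188, 12694 and 12144 (log2 fold change -0.31, or -0.28 without the third).

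The promoters of both cell cycle lists were read for known motifs, from RefSeq windows that run from 250 bases before to 50 bases after a gene's start on GRCh38.p14 (the files were made on hg19, per the labels, and no coordinate of theirs is used). The E2F motif TTTCGCGC was in 13.6% of the 44 windows of DNA replication genes (6 of 34 genes) and in 0.515% of all 35116 windows of the table, on either strand. The CHR motif TTTGAA, an element of genes of late cycle, was in 72.2% of the 36 windows of mitosis genes (23 of 30 genes) and in 15.2% of all windows. Stretches of 3 replication genes that rose are shown with the E2F letters, or their reverse complement, in capitals, 5′ to 3′ on the gene's strand: UHRF1 chr19:4909954-4910021 on the plus strand, MCM6 chr2:135876554-135876621 on the minus strand and MCM7 chr7:100101398-100101436 on the minus strand.
UHRF1: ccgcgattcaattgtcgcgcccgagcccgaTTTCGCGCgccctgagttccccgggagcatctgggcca
MCM6: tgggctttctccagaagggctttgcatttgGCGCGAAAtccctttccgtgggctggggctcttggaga
MCM7: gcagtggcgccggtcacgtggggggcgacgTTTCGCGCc
A match is a description of these letters and shows no binding.

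The list with the lowest median was that of the interferon-stimulated genes, which are switched on by factors that include STAT2 and IRF9 and hold off viruses. Of 35 tested, 25 fell at least 2-fold and 1 rose, beside 8.78% and 3.6% of all genes, and with no minimum fold 33 were lower. The median was -1.51, and without the third d7 library 27 fell and 1 rose with a median of -1.86. IFI44L had 424, 598 and 73.5 at d7 and 7.96, 8.75 and 7.82 at d10 (log2 fold change -4.86, standard error 0.69, adjusted p = 0.000805, limma; -5.78 without the third d7 library). MX1, a GTPase that traps viral particles, had 492, 807 and 121 at d7 and 42.8, 45.7 and 25.4 at d10 (log2 fold change -3.27, or -4.06 without the third). OAS2, which makes the signal that activates RNase L, had 407, 663 and 123 at d7 and 26.9, 26.2 and 16.6 at d10 (log2 fold change -3.76, or -4.46 without the third). In most members the second d7 library was the highest and the third the lowest of the d7 group, still above d10. BST2, which tethers budding virus to the cell, had 207, 265 and 67.0 at d7 and 14.9, 11.7 and 15.7 at d10 (log2 fold change -3.38, or -3.97 without the third). IFITM1, a membrane protein that blocks viral entry, was at the floor in each d10 library and at least 13.6-fold lower, from 57.0, 54.2 and 9.31. The ubiquitin-like modifier ISG15 had 408, 541 and 173 at d7 and 106, 135 and 112 at d10 (log2 fold change -1.51, or -1.99 without the third). Of these factors, IRF9 fell from 996, 1095 and 543 to 279.6, 297 and 260.1 (log2 fold change -1.59, or -1.90 without the third) and STAT2 from 1699, 1748 and 1146 to 657, 698 and 673 (log2 fold change -1.15, or -1.35 without the third). The exception was ISG20, a nuclease, which rose from 109.8, 81.3 and 162 to 266, 295 and 265 (log2 fold change 1.27, or 1.53 without the third). Reads within the IFIT and OAS families can be shared between members. MX2, RSAD2 and CMPK2 were under the filter.

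The interferon-stimulated response element, searched as GAAA, any 2 bases and GAAA on both strands of the same RefSeq windows, was in 66.7% of the 36 windows of members tested (20 of 29 genes) and in 3.57% of all 35116. Stretches of 5 members that fell are shown on the gene's strand with the element, or its reverse complement, in capitals, since they carry the letters that the list shares: IFI44L chr1:78620254-78620323 on the plus strand, BST2 chr19:17405721-17405790 on the minus strand, MX1 chr21:41431824-41431893 on the plus strand, IFIT1 chr10:89392477-89392546 on the plus strand and ISG15 chr1:1013354-1013423 on the plus strand.
IFI44L: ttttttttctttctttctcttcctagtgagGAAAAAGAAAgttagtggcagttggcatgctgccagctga
BST2: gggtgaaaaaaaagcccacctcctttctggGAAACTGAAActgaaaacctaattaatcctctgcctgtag
MX1: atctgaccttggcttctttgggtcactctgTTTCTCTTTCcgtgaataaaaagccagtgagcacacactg
IFIT1: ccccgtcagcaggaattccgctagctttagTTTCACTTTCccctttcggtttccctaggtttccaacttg
ISG15: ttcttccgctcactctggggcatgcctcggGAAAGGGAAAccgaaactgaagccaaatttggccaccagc
The capitals begin between 113 and 196 bases before the start of the gene in these 5. Over all called genes the motif shares are not compared, because only 77% of the genes tested have a window.

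Genes of antigen presentation by MHC class I, which interferon also raises, were mostly lower, in smaller steps. Of its 15 genes 13 were lower and 2 higher with no minimum fold (beside 29.9% and 32.2% of all genes), but 2 fell at least 2-fold (3 without the third d7 library). TAP1, the peptide transporter, had 2188, 2057 and 1316 at d7 and 677, 775 and 706 at d10 (log2 fold change -1.33, or -1.56 without the third). HLA-B had 6043, 5822 and 4911 at d7 and 2636, 2922 and 2627 at d10 (log2 fold change -1.03, or -1.12 without the third). The partner of TAP1, TAP2, rose from 2342, 2318 and 2390.1 to 3144, 3127 and 3117 (log2 fold change 0.41, or 0.43 without the third). Reads of HLA genes can be shared between loci and depend on the alleles of the line.

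**Figure D4:**
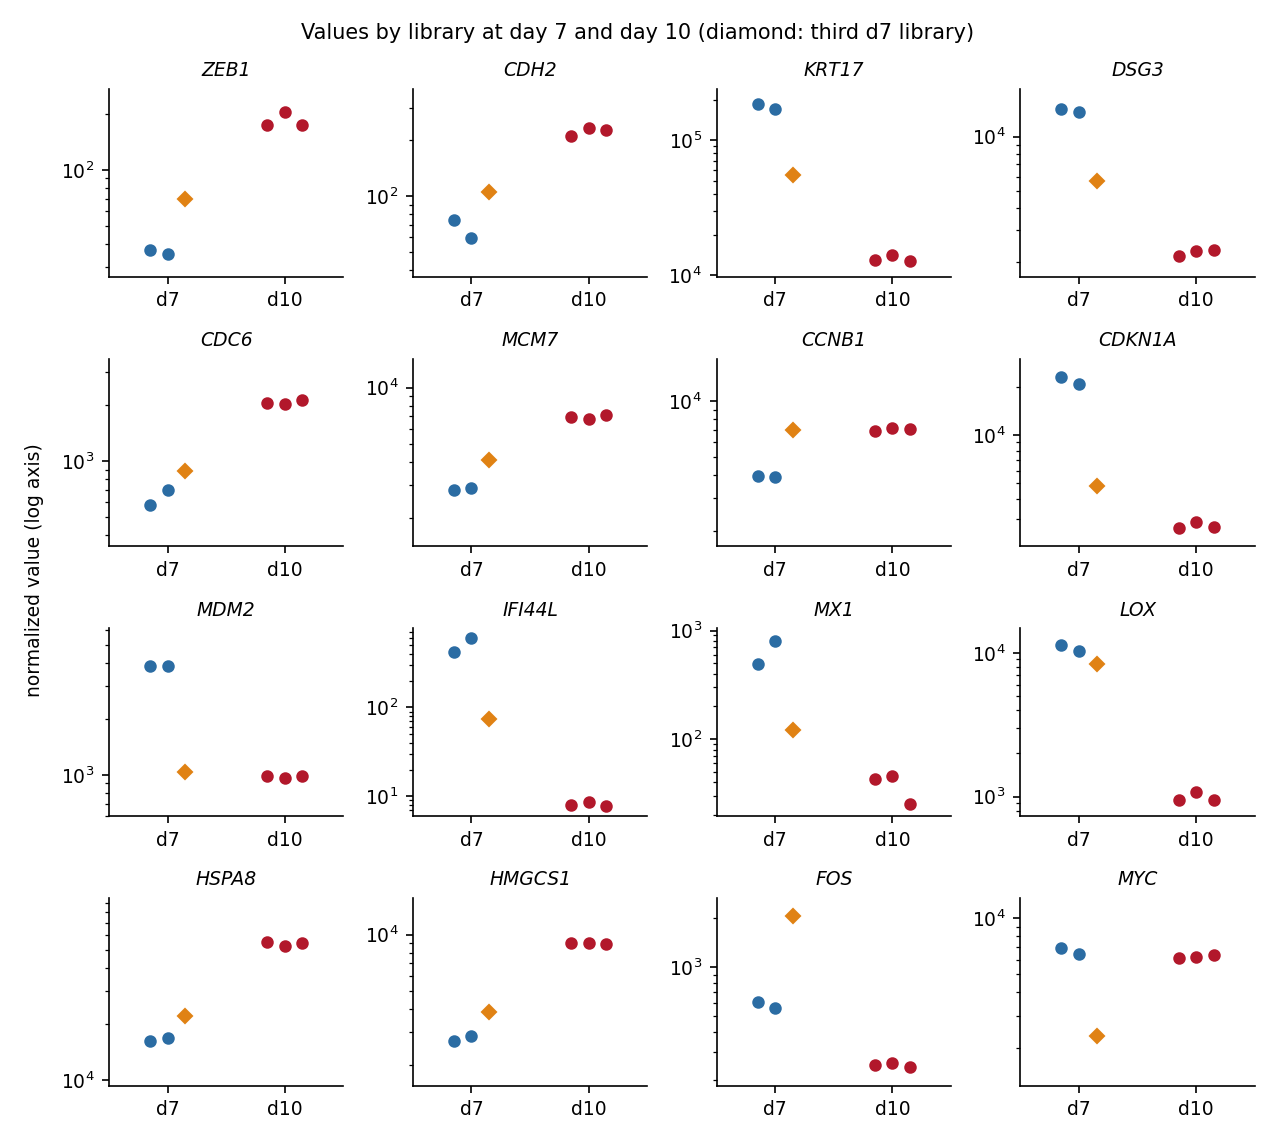
Normalized value (log axis) of 16 genes in each d7 and d10 library (1 point per library; the diamond is the third d7 library). The diamond lies between the groups for genes such as ZEB1, KRT17, IFI44L and CDC6, at the d10 level for CCNB1 and MDM2, with the other d7 libraries for LOX, and beyond both groups for FOS (above) and MYC (below).

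In the extracellular matrix, LOX and several collagens fell while some proteases of the ADAM families rose. Of 23 interstitial collagen and collagen processing genes tested, 5 fell at least 2-fold and 2 rose, and 15 were lower and 6 higher with no minimum fold (median -0.62, and -0.31 with quantile normalization). LOX, the enzyme that crosslinks collagen, had 11409.9, 10363 and 8345 at d7 and 952, 1072 and 953 at d10 (log2 fold change -3.33, standard error 0.11, adjusted p = 2.06e-05, limma). All d7 libraries were high for LOX, and its log2 fold change was -3.45 without the third. COL1A1, the main chain of type I collagen, fell from 7469, 7251 and 5859.9 to 3791, 4089 and 3829 (log2 fold change -0.81, or -0.92 without the third), and COL6A1 from 473, 388 and 211 to 94.5, 114 and 102 (log2 fold change -1.71, or -2.04 without the third). COL6A3, a chain of the same type VI collagen, rose from 86.5, 86.5 and 208 to 285, 248 and 266 (log2 fold change 1.19, or 1.61 without the third). PLOD2, a collagen hydroxylase, rose as well (log2 fold change 0.82, or 0.84 without the third).

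Of 16 laminin and basement membrane genes 2 fell at least 2-fold and 0 rose, beside 8.78% and 3.6% of all genes, and 4 fell without the third d7 library. With no minimum fold 10 were lower and 3 higher. The 2 that fell were the proteoglycan HSPG2, with 4414, 4168 and 4847 at d7 and 1926, 2223 and 1814 at d10 (log2 fold change -1.17, or -1.11 without the third), and the laminin chain LAMA5 (log2 fold change -1.13, or -1.19 without the third). The laminin chain LAMA3 rose by 0.22, and LAMB3 had a log2 fold change of 0.07 (adjusted p = 0.379, limma). Among 22 matricellular and proteoglycan genes 3 fell and 1 rose at least 2-fold (5 and 1 without the third d7 library), beside 8.78% and 3.6% of all genes, with a median of -0.18 that became 0.00 under quantile normalization. TGFBI, a matrix protein named for its induction by TGFβ, fell from 461755, 447326 and 275794 to 141041, 143158 and 140578 (log2 fold change -1.44, or -1.68 without the third). The glycoprotein TNC fell from 4896, 4789.5 and 3116 to 1798, 1899.7 and 1706 (log2 fold change -1.22, or -1.43 without the third). HAS2, a hyaluronan synthase, was at the floor in every d7 library and rose at least 12.2-fold, to 42.8, 32.1 and 36.2.

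Of 20 matrix protease and plasminogen system genes, 6 rose and 5 fell at least 2-fold (7 and 5 without the third d7 library). The secreted proteases ADAMTS1 and ADAMTS6 rose, the first from 142, 172 and 323 to 857, 829.9 and 833 (log2 fold change 2.07, or 2.42 without the third) and the second from 212, 234 and 480.3 to 1088, 1156 and 1126 (log2 fold change 1.96, or 2.33 without the third). ADAM12 had 30.6, 31.3 and 112 at d7 and 202, 179 and 179 at d10 (log2 fold change 1.95, or 2.55 without the third). PLAU, the urokinase that activates plasmin, had 5462, 4930.3 and 5937 at d7 and 11930.3, 12049 and 11959.9 at d10 (log2 fold change 1.14, or 1.21 without the third). MMP28 fell from 1362, 1356 and 649 to 179, 223 and 166 (log2 fold change -2.49, or -2.85 without the third). The protease inhibitors TIMP2 and TIMP3 fell by 1.42 and 1.26 on the log2 scale (log2 fold changes of -1.56 and -1.49 without the third d7 library). Of 13 integrin genes 1 rose and 1 fell at least 2-fold, beside 3.6% and 8.78% of all genes. ITGA2, a collagen receptor chain, rose (2028, 2097 and 3026 at d7 and 5021, 4799 and 5059 at d10, log2 fold change 1.08, or 1.27 without the third). ITGB8, which activates latent TGFβ, fell (log2 fold change -1.38, or -1.45 without the third). Of 19 contractile and actin crosslinker genes 2 fell at least 2-fold and 0 rose (3 and 0 without the third d7 library), beside 8.78% and 3.6% of all genes. They were TAGLN, from 3229, 3154 and 1723 to 593, 579 and 518 (log2 fold change -2.21, or -2.50 without the third), and MYL9 (log2 fold change -1.32, or -1.48 without the third), both of smooth muscle type, and ACTA2, the smooth muscle actin, fell by 0.94 on the log2 scale (log2 fold change -0.94, or -1.15 without the third).

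Among genes of the TGFβ pathway, those of feedback were mostly lower, few of them past 2-fold, and ligands were mixed. Of 16 feedback and immediate SMAD target genes, 9 were lower and 1 higher with no minimum fold (median -0.32), beside 29.9% and 32.2% of all genes. At least 2-fold, 2 fell and 1 rose (3 and 1 without the third d7 library), beside 8.78% and 3.6% of all genes. The ID proteins, which block differentiation factors, fell together: ID3 from 2304, 2207 and 1908 to 817, 834 and 759 (log2 fold change -1.41, or -1.49 without the third), ID1 from 963, 931 and 974 to 568, 574 and 512 (log2 fold change -0.79, or -0.78 without the third) and ID2, from 26.4, 25.0 and 27.9 to 4.98, 9.72 and 2.93, by 2.12 on the log2 scale. SMAD7, the inhibitory SMAD, fell from 791, 740.2 and 669 to 518, 542 and 569 (log2 fold change -0.43, or -0.50 without the third). SMURF2, a ubiquitin ligase for the receptor, rose from 989, 1071 and 1311 to 2464, 2509.9 and 2372 (log2 fold change 1.13, or 1.25 without the third). Among 21 ligand, receptor and latency genes 4 rose at least 2-fold, namely BMP4, BMP6 and the antagonists FST and GREM1, and ITGB8 fell. FST, which binds activin, had 145, 118 and 90.3 at d7 and 693, 629.7 and 676 at d10 (log2 fold change 2.52, or 2.34 without the third). The receptor TGFBR2 rose from 1814, 1806 and 2095 to 3029, 3031 and 3029 (log2 fold change 0.67, or 0.74 without the third) and TGFBR1 fell (log2 fold change -0.53, or -0.70 without the third), and the ligand TGFB1 fell by 0.27 on the log2 scale.

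Of 21 AP-1 and immediate early genes tested, 5 fell and 4 rose at least 2-fold. DUSP1, a phosphatase of stress kinases, had 880.1, 786 and 759 at d7 and 189, 212 and 181 at d10 (log2 fold change -2.05, or -2.10 without the third). EGR1, an early growth response factor, had 4445, 3769.9 and 6428 at d7 and 1571, 1543 and 1702 at d10 (log2 fold change -1.57, or -1.35 without the third). DUSP6, a phosphatase of ERK, had 1230.5, 1292 and 394 at d7 and 2901, 2842 and 3018 at d10 (log2 fold change 1.77, or 1.21 without the third). SPRY4, an inhibitor of growth factor signalling, had 940.3, 825 and 548 at d7 and 1627, 1625 and 1619 at d10 (log2 fold change 1.11, or 0.88 without the third), and FOSL1, an AP-1 subunit, 957, 853 and 539 at d7 and 2122, 1994 and 2129.7 at d10 (log2 fold change 1.45, or 1.20 without the third). In DUSP6, SPRY4 and FOSL1 the third d7 library was the lowest of all 6, so these differences were larger with it than without it. Of 10 EGF-like ligands and ERBB receptors 2 fell at least 2-fold and 0 rose (2 and 1 without the third d7 library). The receptor ERBB3 had 523, 490.0 and 333 at d7 and 79.6, 95.2 and 95.8 at d10 (log2 fold change -2.28, or -2.48 without the third), and EGF itself was low, with 24.3, 25.0 and 35.4 at d7 and 10.9, 8.75 and 8.80 at d10. NRG1, the ligand of ERBB3, rose from 231, 204 and 262 to 464, 446 and 441 (log2 fold change 0.96, or 1.05 without the third). Of 21 YAP and TAZ target genes 2 rose and 1 fell at least 2-fold (2 and 2 without the third d7 library), beside 3.6% and 8.78% of all genes. DLC1, a RhoGAP, had 204, 186 and 384 at d7 and 768, 743 and 717 at d10 (log2 fold change 1.60, or 1.93 without the third), NT5E, the surface enzyme CD73, rose by 1.16 on the log2 scale, and ANKRD1 fell, with groups that overlapped (67.5, 85.5 and 12.1 at d7 and 12.9, 7.77 and 6.84 at d10). CTGF, the usual readout of this pathway, fell from 3321, 2956 and 2636 to 1851, 1795 and 1828 (log2 fold change -0.70, or -0.78 without the third) and CYR61 rose (log2 fold change 0.30, or 0.38 without the third).

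Of 23 inflammatory cytokine and chemokine genes tested, 6 fell at least 2-fold and 2 rose (8 and 2 without the third d7 library; 3 and 3 with quantile normalization), with a median of -0.68. Besides CSF3, the member that rose was CSF2, the related factor GM-CSF, from 27.4, 17.7 and 22.3 to 97.5, 123 and 89.0 (log2 fold change 2.16, or 2.16 without the third). CFB, a complement protease, had 176, 157 and 69.8 at d7 and 12.9, 9.72 and 14.7 at d10 (log2 fold change -3.24, or -3.66 without the third). TNFAIP3 and NFKBIA, feedback inhibitors of NF-κB, fell from 1253, 1101 and 901 to 453, 529 and 478 (log2 fold change -1.15, or -1.27 without the third) and from 3529, 3346 and 3138 to 1580.4, 1854 and 1472 (log2 fold change -1.03, or -1.08 without the third). IL1A, an alarmin of epithelium, was at 4603, 4307 and 2006 at d7 and 4213, 4483 and 4234 at d10, and its groups overlapped (a log2 fold change of 0.34 with adjusted p = 0.332, limma; -0.05 and 0.243 without it).

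Most genes of lipid synthesis rose in modest steps. Of 25 cholesterol synthesis and uptake genes 20 were higher and 2 lower with no minimum fold (median 0.53), 3 of them at least 2-fold higher and 1 lower (1 and 0 with quantile normalization). HMGCS1, an early enzyme of the pathway, had 2695, 2864 and 3846 at d7 and 9015, 8982 and 8892 at d10 (log2 fold change 1.53, standard error 0.12, adjusted p = 0.000147, limma, or 1.69 without the third), and FDPS, which makes farnesyl pyrophosphate, 4072, 4268 and 6145 at d7 and 10543, 10768 and 10595 at d10 (log2 fold change 1.16, or 1.35 without the third). TM7SF2, a late reductase, fell from 79.2, 65.7 and 69.8 to 28.9, 34.0 and 37.2 (log2 fold change -1.08, or -1.10 without the third). Of 11 fatty acid synthesis genes 8 were higher and 1 lower, with FASN, the fatty acid synthase, at 14306, 13611 and 17947 at d7 and 32414, 32782 and 31663 at d10 (log2 fold change 1.09, or 1.21 without the third). Among 30 glycolysis and hypoxia response genes 3 fell and 1 rose at least 2-fold, close to the 8.78% and 3.6% of all genes. Those that fell were CA9 (336, 319 and 207 at d7 and 90.6, 102 and 106 at d10, log2 fold change -1.49, or -1.71 without the third), CA12 and ADM. With no minimum fold 16 were higher and 7 lower, beside 32.2% and 29.9% of all genes. The enzymes ENO1 (0.79) and LDHA (0.71) were among the higher ones. ANGPTL4, an inhibitor of lipoprotein lipase, rose from 261, 243 and 892 to 2221, 2005 and 2007 (log2 fold change 2.43, or 3.04 without the third). Of 38 nuclear-encoded oxidative phosphorylation genes 18 were higher and 1 lower with no minimum fold, beside 32.2% and 29.9% of all genes. These counts were 13 and 7 with quantile normalization and 23 and 5 without the third d7 library. The 1 gene past 2-fold, CYCS, which encodes cytochrome c, rose from 2855, 3183 and 3465 to 7118, 6794 and 7159.7 (log2 fold change 1.15, or 1.22 without the third). Of 50 cytosolic ribosomal protein genes 0 changed 2-fold by limma, edgeR or DESeq2, 22 were lower and 0 higher with no minimum fold (41 and 1 without the third d7 library), and the median was -0.16. Mitochondrially encoded genes were not among the symbols used here.

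Several heat shock genes rose. Of 12 tested in the list of cytosolic heat shock genes 5 rose at least 2-fold and 1 fell, with a median of 0.74. HSPA8, the constitutive HSP70 chaperone, had 16179.9, 16757 and 22010.0 at d7 and 54893, 52633 and 54778 at d10 (log2 fold change 1.58, standard error 0.12, adjusted p = 0.000128, limma, or 1.72 without the third), and HSP90AA1 14709, 15989.8 and 19100.5 at d7 and 39389, 38592 and 38844 at d10 (log2 fold change 1.24, or 1.34 without the third). The mitochondrial pair HSPD1 and HSPE1, which the list also holds, rose by 1.14 and 1.10. The stress-inducible HSPA1A and HSPA1B, whose reads can be shared, had log2 fold changes of 0.24 and 0.14 (adjusted p = 0.0113 and 0.125, limma). HSPB1, a small heat shock protein, fell from 36107, 30032 and 16194 to 3690.2, 4098 and 3666 (log2 fold change -2.77, or -3.11 without the third). CRYAB, a relative of HSPB1 that is not in this list, fell from 1184, 1051 and 322 to 57.7, 56.4 and 54.8 (log2 fold change -3.69, or -4.29 without the third). Of 20 ER folding genes 17 were higher and 1 lower with no minimum fold, 0 of them past 2-fold by limma, edgeR or DESeq2, with HSPA5, the ER chaperone BiP, at 11301, 11289 and 14538 at d7 and 20994, 21752 and 20980.5 at d10 (log2 fold change 0.79, or 0.91 without the third).

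Among 31 ATF4 and amino acid response genes 14 were higher and 5 lower with no minimum fold (22 and 5 without the third d7 library), beside 32.2% and 29.9% of all genes. Only 1 passed 2-fold (3 without that library). It was NUPR1, which fell from 4689.8, 4438 and 2586 to 1034, 1149.5 and 1119.6 (log2 fold change -1.78, or -2.05 without the third). Of 18 NRF2 targets 9 were higher and 5 lower with no minimum fold, beside 32.2% and 29.9% of all genes. The aldo-keto reductases AKR1B10, AKR1C2 and AKR1C3, whose reads can be shared within the AKR1C family, fell at least 2-fold. MT2A, a metal-binding metallothionein, rose from 22923, 20291 and 44658 to 67458, 72061 and 71931 (log2 fold change 1.36, or 1.71 without the third), and MT1G, near the filter, rose too, while MT1X fell (log2 fold change -0.73, or -0.99 without the third). Of 31 lysosome genes 23 were lower and 3 higher with no minimum fold (beside 29.9% and 32.2%), and 4 fell at least 2-fold (7 without the third d7 library). GPNMB, a glycoprotein of lysosome-related organelles, had 477, 427 and 59.6 at d7 and 13.9, 15.6 and 15.7 at d10 (log2 fold change -3.85, or -4.82 without the third). The protease CTSD fell from 5681, 5403 and 3924 to 2596, 2667 and 2607 (log2 fold change -0.91, or -1.08 without the third). Of 8 histone genes tested 4 fell at least 2-fold, and 6 of the list's 14 genes were under the filter. Those that fell were HIST1H2BD, HIST1H2AC, HIST2H2BE and HIST1H1C, with HIST1H1C, a linker histone, at 502, 470.2 and 267 at d7 and 168, 161 and 165 at d10 (log2 fold change -1.27, or -1.55 without the third). H2AFX, the variant that marks DNA breaks, rose by 0.24.

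The study's own signature genes, which it took from tumour cells rather than from these libraries, had 92 members tested. At least 2-fold changes were found for 22 that fell and 6 that rose (24 and 8 without the third d7 library), beside 8.78% and 3.6% of all genes, and the median was -0.22. Besides GPNMB, CRYAB and KRT17, the largest decreases were those of FBXO32 and the sulfatase SULF1, which had 493, 463 and 257 at d7 and 72.7, 70.0 and 81.2 at d10 (log2 fold change -2.37, or -2.67 without the third). Increases were led by ADAMTS1, MAP1B, MT2A and ANXA3, an annexin with 804, 918 and 1409 at d7 and 2448, 2546 and 2445 at d10 (log2 fold change 1.29, or 1.53 without the third). With no minimum fold 45 were lower and 23 higher, beside 29.9% and 32.2% of all genes.

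The third d7 library did not sit at one place for all genes. Over the 1621 genes called at least 2-fold in the same direction with and without it, it lay between the mean of the other d7 libraries and the d10 mean for 439 of 468 that rose (93.8%) and 1093 of 1153 that fell (94.8%), and its median position was 0.360 of the way to d10. These genes were called from the same libraries, the third included. Genes in which that library lay at or past d10 were thus less likely to enter, and these values depend partly on that choice. The position was 0.632 for the basal and stress keratins, 0.596 for the p53 targets, 0.583 for the histones and 0.563 for the cornified envelope genes. It was 0.491 for the interferon-stimulated genes, 0.315 for DNA replication, 0.292 for cholesterol synthesis and 0.240 for the heat shock genes. The AP-1 and immediate early genes had 3 of 8 between the groups and a median of -0.438, which is on the far side from d10. The other lists with a median below 0, those of laminins and of EGF-like ligands, had 2 called genes each. By at least 2-fold, 3 of the 13266 genes were higher in this library than in all of the other 5, namely FOSB with 31.7, 25.0 and 259 at d7 and 16.9, 20.4 and 17.6 at d10, FOS with 606, 559 and 2055 at d7 and 249.8, 256 and 242 at d10 and the cyclin CCNA1 with 70.7, 57.3 and 166 at d7 and 63.7, 71.9 and 72.4 at d10, while 8 were lower than in all of the other 5. Of those 8, the ones above 100 were MYC with 6945, 6459 and 2333 at d7 and 6145, 6199 and 6319 at d10, DUSP6, DUSP5 with 1070.1, 968 and 455 at d7 and 1200.2, 1197 and 1234 at d10 and IL1A, chosen here after their values were seen. MYC, the growth regulator, therefore had close values in the other 5 libraries, and its log2 fold change was 0.40 with the library (adjusted p = 0.376, limma) and -0.11 without it (adjusted p = 0.00625).

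The same measure was taken over a later interval, d15 to d20, in 6 libraries that neither d7 nor d10 shares. Of the 464 genes that rose at least 2-fold from d7 to d10 and were tested in both intervals, 261 (56.2%) also rose at least 2-fold from d15 to d20 and 1 fell. Among the 1137 that fell, 591 (52%) fell again and 8 rose. Over all 13127 genes tested in both, 7.5% rose and 7.27% fell between d15 and d20 (7.58% and 7.94% of the 13370 genes tested in that interval alone). The median log2 change from d15 to d20 was 1.07 for the genes that had risen and -1.04 for those that had fallen, with 0.00 for all genes. Starting from the genes called without the third d7 library, 51.2% of 681 rose again and 48.6% of 1382 fell again. Named genes of both directions were among them. INPP5D fell from 7125 ± 25.9 (SD, n = 3) to 766 ± 12.8, KRT17 from 186677 ± 4734 to 48718 ± 1517 and CDKN1A from 23196 ± 429 to 5801 ± 536. CSF3 rose from 82.8 ± 9.62 to 364 ± 35.9 and CDH11 from 756 ± 10.4 to 2238 ± 47.2.

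Some lists separated the intervals. The difference of the changes, d15 to d20 minus d7 to d10, was tested for every gene in one limma fit over the 12 libraries, a test added after the values were seen. It was past 2-fold at an adjusted p under 0.05 and positive for 673 of 13127 genes (5.13%), and negative for 154 (1.17%). Without the third d7 library these shares were 6.09% and 1.64%. This fit shares the spread of a gene over all its timepoints, so its p-values with all libraries understate the larger spread at d7. Of 34 interferon-stimulated genes tested in both intervals, 23 differed in this way, all positive (26 without the third d7 library), and from d15 to d20 themselves 3 fell and 2 rose at least 2-fold, with a median of -0.10. IFI44L was at 58.9 ± 7.89 (SD, n = 3) at d15 and 22.9 ± 3.38 at d20, and MX1 at 142 ± 24.2 and 57.6 ± 6.22, with both genes lower at d20 and all of these means under the first 2 d7 values. Of the mitotic genes 31 of 36 differed, all in the positive direction (22 without the third d7 library). From d15 to d20 themselves 35 of 36 rose at least 2-fold, with a median of 1.54. For CCNB1 the difference was 1.29 on the log2 scale (standard error 0.22, adjusted p = 0.000637, limma). It was smaller without the third d7 library, which was at the d10 level for this gene, and still passed (adjusted p = 5.97e-20, limma). DNA replication genes rose over both intervals, by a median of 0.85 and 1.88. Of the 40, 20 rose more from d15 to d20 (19 without the third d7 library) and 1 differed in the negative direction. Cornified envelope genes also differed, 12 of 17 in the positive direction (13 without the third d7 library). Of the 20 members tested from d7 to d10, only these 17 passed the filter in both intervals. KLK7 was already low at d15 (15.2 ± 4.80), which left little room for a second fall, while PPL stood at 4245 ± 82.6. The part of low d15 values in this count was not tested. The p53 target genes had medians of -1.30 and -1.29, and 1 of 20 differed in each direction. Without the third d7 library the d7 to d10 median was -1.69, and 3 of 20 differed in the positive direction and 0 in the negative.

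**Figure D5:**
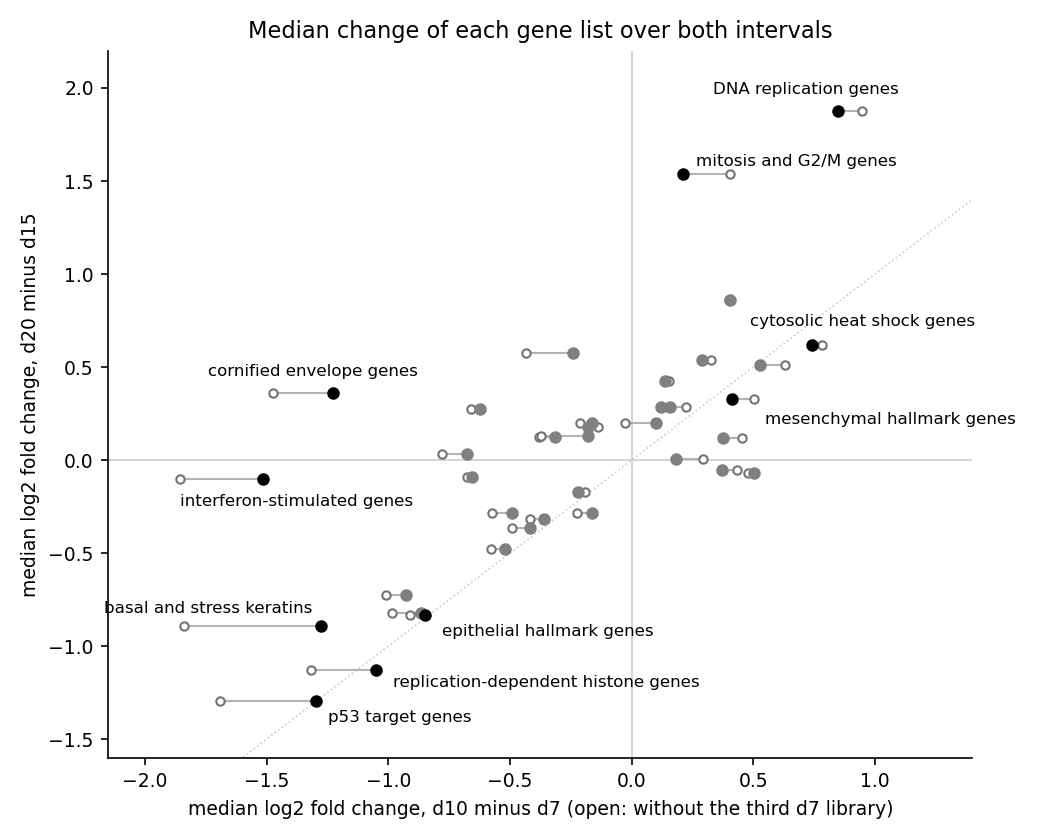
Median log2 fold change of each gene list from d7 to d10 (x axis; filled with all 6 libraries, open without the third d7 library) and from d15 to d20 (y axis; 6 other libraries), with equal medians on the dotted line. The interferon-stimulated genes lie at -1.51 and -0.10, the mitosis genes at 0.21 and 1.54, and the p53 target genes near the dotted line at -1.30 and -1.29.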

How the data were processed

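RNA was measured in 21 libraries of HMLE cells, 3 at each of 7 timepoints, of which the 6 of d7 and d10 enter the main comparison. The authors deposited 1 table of signal values per gene and library, which are gene counts divided by a size factor of the library and rounded. The labels' processing notes name STAR 2.7, Salmon 1.4 and hg19. Whole reads were recovered from the steps of the values (at least 99.97% of values within 0.006 of a whole multiple), which gave the depth of each library. Columns carry the timepoint and no replicate number, and 0 columns lacked a group.

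Genes with a mean of at least 10 over the 6 libraries were tested with limma 3.58.1 (R 4.3.3; lmFit and eBayes with a trend) on log2(value + 1). All p-values are two-sided and Benjamini-Hochberg adjusted over all genes tested. A gene was called at an adjusted p under 0.05 and a fold of at least 2, and fold changes are on the log2(value + 1) scale, which understates low genes. The fit was repeated without the third d7 library. The same steps gave d15 against d20, and a contrast over 12 libraries gave the difference of the changes. Steps were tested on simulated data. Alternatives were edgeR 4.0.16 and DESeq2 1.42.0 on recovered reads, other scalings, a pseudocount of 10, no filter, all 21 libraries in one fit, array weights and each library left out. Tables and figures used Python 3.11.15, pandas 2.3.3, numpy 2.4.6 and matplotlib 3.10.9.

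The comparison and the gene lists were chosen with earlier results of these data known. Of 881 list genes, 871 were listed, 23 of them under an older symbol, and 787 were tested. Genes were named by a rule: 2 to 6 members per list with the largest called change (or the best expressed), the 12 largest increases and decreases with a mean of at least 50, all EMT hallmark genes, and the 5 genes in each direction by which the third d7 library differed most. Other members named beside them were chosen after their values were seen. A few genes that the rule names are not reported here.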

Additional observations from a re-analysis of the deposited data

Results flagged for a closer look

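The change from d15 to d20 differed from the change from d7 to d10 in a test of the difference itself (limma over 12 libraries, added after the values were seen). At least 2-fold at an adjusted p under 0.05, it was more positive for 673 genes and more negative for 154 (799 and 215 without the third d7 library). For CCNB1 the difference was 1.29 on the log2 scale, and smaller without that library, which was at the d10 level for this gene.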

How the results depend on the processing

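The direction and the size of the main counts held under every alternative run except the one without a minimum fold, where 4272 genes were higher and 3966 lower, and 262 and 319 of the list genes beside 61 and 138. The alternatives with a minimum fold gave 392 to 699 genes higher and 972 to 1421 lower when libraries were left out one at a time, 442 and 1245 with edgeR, 442 and 1219 with DESeq2, 641 and 890 with quantile normalization, 402 and 924 with a pseudocount of 10, and 582 and 1601 without a filter. The edgeR test without the third d7 library, chosen after seeing the data, gave 666 and 1472. Of 1184 counts of single lists under alternatives 1061 stayed within 1.5 times, and of the 123 that did not, 54 were without a minimum fold and 69 under the others, 9 of them without the third d7 library. The place of the third d7 library was 0.409 to 0.431. Of 2790 values of named genes under alternatives 2675 kept their direction and side of the threshold, 58 no longer passed, 53 newly passed and 4 changed sign, none of the 4 past the threshold. These were SNAI2 at -0.044 with quantile normalization, ZEB2 at -0.064 with array weights, and OVOL2, which ranged from -0.060 to 0.15 when libraries were left out one at a time and was below 0 without d7 replicate 1 and without d10 replicate 1. Why these signs turned was not tested. With 3 libraries per timepoint and 20158673 to 22388732 reads each, genes under a mean of 10 were not tested, and the p-values measure the spread between these libraries only. No paired analysis was possible because replicate numbers are missing from the column names.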
